A study of Mus musculus with 21 samples.

Results

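Binding of estrogen receptor alpha (ERα), the nuclear receptor for estradiol, was examined at 9 genes that mark or drive brown fat: Ucp1, Prdm16, Ppargc1a, Dio2, Zic1, Lhx8, Cidea, Elovl3 and Ebf2. They are 9 of the 21631 protein-coding genes on chromosomes 1 to 19 and X. A chromatin immunoprecipitation (ChIP-seq) peak was taken as theirs when its summit, the position of the highest signal, lay inside the gene's mm10 span or within 25 kb of it, which gave 49 of the 72690 peaks in 5 deposited lists. The study mapped ERα in white fat (vWAT and scWAT), brown fat (BAT) and Liver of CD-1 mice aged 10 weeks, an outbred stock, given estradiol or vehicle before they were killed. Sex, dose, route and time of treatment are not given in the labels. Tissue was flash frozen and ERα-bound chromatin was pulled from sonicated nuclei with an antibody. The lists were vWAT with estradiol (4 libraries), vWAT with vehicle (2 libraries), and scWAT (3 libraries), BAT (1 library) and Liver (2 libraries), these last with estradiol. Each group has 1 list, so variation among animals could not be measured and no test was run, and the BAT list rests on a lone library. The tissues were whole, so fewer cells of a type and less binding per cell cannot be told apart.

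Brown adipocytes burn fuel to make heat, and they do so by letting protons leak across the inner mitochondrial membrane through UCP1. Cold acts through noradrenaline and cAMP to raise Ucp1, with PGC-1α (Ppargc1a) as the inducible coactivator and type 2 deiodinase (Dio2) supplying active thyroid hormone inside the cell. PRDM16 and EBF2 are transcriptional regulators of the brown lineage, and Zic1 and Lhx8 are used to mark classical interscapular brown fat as against beige cells in white fat. Estradiol is known to favour heat production, in part through the brain.

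With estradiol, 6 of the 9 genes had a peak in vWAT, 4 in scWAT, 5 in BAT and 6 in Liver, and 3 had a peak in vWAT with vehicle. The share of all protein-coding genes with a peak was 61.5% in vWAT with estradiol, 44.8% in vWAT with vehicle, 61.0% in scWAT, 29.7% in BAT and 67.5% in Liver. The 95% Wilson half-widths of these shares were at most 0.664 points. They treat genes as independent, though neighbours can share a peak, and do not cover spread among animals or among the 9 members. Beside these shares, the count of members was near that of genes at large in vWAT with estradiol and in Liver. It was 55.6% of the members in BAT, above the 29.7% of all genes, and 44.4% in scWAT, below the 61.0% of all genes. Elovl3 had a peak in all 5 lists, as did 21.1% of all genes. Zic1 and Lhx8 had a peak in BAT and in no other list, which was so for 0.717% of all genes. That class was set by the pattern of these genes, so its rarity is no test. Both peaks were weak, as described below, and that of Zic1 lay inside the neighbouring Zic4. Each of the 9 had a peak in at least 1 list, as did 80.0% of all genes.

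**Figure D1:**
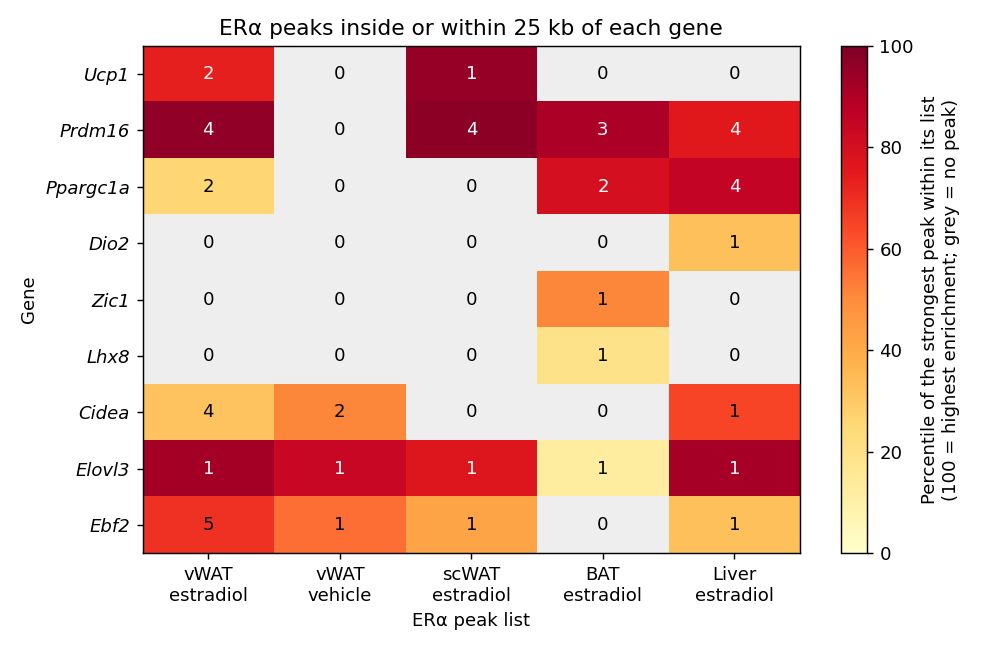
Number of ERα peaks inside or within 25 kb of each of the 9 genes (rows) in each of the 5 lists (columns), printed in the cells. Colour gives the percentile of the strongest of these peaks within its own list (100 is the highest enrichment, grey is no peak). Prdm16 has 4, 4, 3 and 4 peaks in vWAT with estradiol, scWAT, BAT and Liver and 0 in vWAT with vehicle, and Zic1 and Lhx8 have their lone peak in BAT.

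Peak strength is given as enrichment, the authors' own ratio for each peak as are the −log10 q values, and as its percentile within that list, where 100 is the strongest and peaks of equal enrichment share a percentile. Neither can be compared between lists. The members' strongest peaks had a median percentile of 71.5 in vWAT with estradiol (72.5 over all genes with a peak), 56.0 in vWAT with vehicle (67.8), 86.1 in scWAT (67.2), 51.5 in BAT (62.0) and 70.1 in Liver (78.9). The number of peaks per member had a median of 2 in vWAT with estradiol and 0 with vehicle, 0 in scWAT, 1 in BAT and 1 in Liver, beside medians over all genes of 1, 0, 1, 0 and 1 in the same order. Gene length bears on such counts. The members' spans ran from 3.80 kb (Elovl3) to 662 kb (Ppargc1a), and in Liver 89.3% of the genes over 200 kb had a peak against 51.5% of those under 10 kb.

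**Figure D2:**
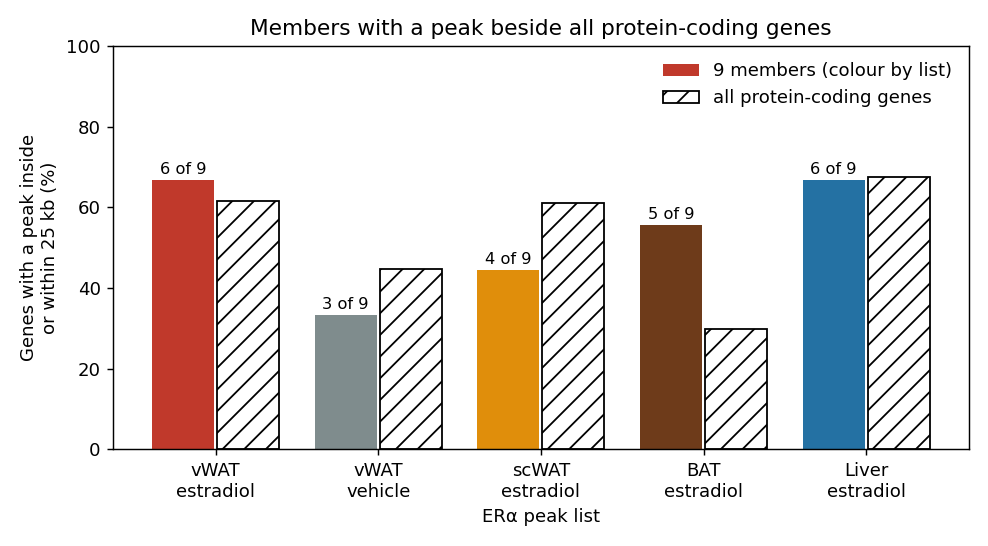
Share of the 9 genes (filled bars, coloured by list) and of all 21631 protein-coding genes (hatched bars) with an ERα peak inside the gene or within 25 kb, in percent, for each list. The members stand above all genes in BAT (5 of 9) and below them in scWAT (4 of 9) and in vWAT with vehicle (3 of 9).

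The labelled tissues were set beside genes that mark them, although a peak is not a measure of expression. Of 6 hepatocyte markers, 4 had a peak in Liver, 1 in vWAT with estradiol, 1 in scWAT and none in BAT or in vWAT with vehicle. Of 6 markers of white and general adipocytes, 6 had a peak in vWAT with estradiol, 5 in scWAT, 1 in BAT and 4 in Liver, and 3 in vWAT with vehicle. Of 5 brown adipocyte markers, 3 (60%) had a peak in BAT, 5 (100%) in vWAT with estradiol, and 4 (80%) each in vWAT with vehicle, scWAT and Liver. The shares of all genes were 29.7%, 61.5%, 44.8%, 61.0% and 67.5% in the same order. Ucp1, Cidea and Elovl3 among these markers are also members, so this in part repeats the counts above. The BAT peak of Elovl3 was weak (percentile 12.8, −log10 q of 0.753). Ucp1 and Cidea, which define brown adipocytes, had none in BAT. Cox7a1 (percentile 98.5) and Cox8b (percentile 75.5) had stronger BAT peaks, and both genes had peaks in all 5 lists. For other cell types the tissue could hold, 4 of 4 mesothelium markers had a peak in vWAT with estradiol and 2 with vehicle, 2 in scWAT, 1 in BAT and 1 in Liver. Peaks near macrophage markers were listed for 2 of 3 genes in vWAT with estradiol and 1 with vehicle, and for 2 in scWAT, 1 in BAT and 3 in Liver. Mammary epithelium markers had peaks for 2 of 4 genes in each vWAT list, 2 in scWAT, 1 in BAT and 3 in Liver. Of 4 skeletal muscle markers, 3 had a peak in vWAT with estradiol and none did in the other lists. These were among the weakest of that list (percentile 3.53 for Acta1 and 4.197 for Myh1 and Myh4), and the neighbours Myh1 and Myh4 had the same values. The shares of all genes given above apply here too: 4 of 6 hepatocyte markers (66.7%) is about the 67.5% of all genes with a peak in Liver. That count does little to check the Liver label. The hepatocyte share was 16.7% in vWAT with estradiol and in scWAT, below the 61.5% and 61.0% of all genes. Each set holds few genes, so these counts are a weak check of the labels. The part of such cells in the results was not tested.

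Prdm16, which encodes the zinc finger regulator that holds precursor cells to the brown fate, carried the strongest member peak of each of the 3 fat lists with estradiol and had none in vWAT with vehicle, where that of Elovl3 was the strongest. The gene runs over 321 kb on the minus strand of chromosome 4 (mm10, chr4:154316122-154637360). In vWAT with estradiol its 4 peaks all lay inside the span, and the strongest, at chr4:154588048-154588612 and 48.5 kb downstream of the gene start, had an enrichment of 13.4 (rank 800 of 20715, percentile 96.1). Peaks at the same place had an enrichment of 10.8 in scWAT (rank 531 of 17971, percentile 97.0) and 6.63 in BAT (rank 487 of 5193, percentile 90.6). These 3 summits lay within 29 bp of each other, and neither Liver nor vWAT with vehicle had a peak there.

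Another Prdm16 site, 55.3 kb downstream of the start in vWAT (chr4:154581141-154581818), was likewise found in the 3 fat tissues with estradiol, with summits within 113 bp. Its enrichment was 6.69 in vWAT (percentile 75.3), 4.29 in scWAT (percentile 71.2) and 3.98 in BAT (percentile 33.8), where its −log10 q was 1.18. A site 66.3 kb downstream was found in vWAT (6.95, percentile 77.0) and scWAT (7.89, percentile 92.3) and not in BAT. Weaker peaks stood alone at 109 kb in vWAT (4.07) and 100.3 kb in scWAT (4.46). The shared sites thus sat in a stretch of the gene between 48.5 and 66.3 kb from the start.

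Sites of that kind, in vWAT with estradiol, scWAT and BAT but in neither Liver nor vWAT with vehicle, made up 301 of 20715 peaks (1.45%) of the vWAT estradiol list. The stronger Prdm16 site ranked 44 among the 301 by enrichment and the weaker 173. At least 1 such peak was near 1.51% of all genes and at least 2 near 0.0601% (13 genes, Prdm16 among them, by way of that weaker BAT peak). This kind of site was defined from the Prdm16 pattern, so Prdm16 was in it by construction and its rarity is no test. The shares are over genes of all lengths, and that among genes over 200 kb was not counted. Prdm16 is long: of 990 genes over 200 kb, 29.8% had 4 or more peaks in vWAT with estradiol, 20.7% did in scWAT, and 5.35% had 3 or more in BAT. In Liver the 4 peaks of Prdm16 lay elsewhere, between 150 and 342 kb downstream of the start, and 2 of them were outside the span on the side of Arhgef16. The 4 enrichments were 3.23, 3.31, 3.31 and 4.84 (percentiles of 10.4, 18.3, 18.3 and 75.5), with −log10 q values of 1.18, 1.29, 1.29 and 3.30. The strongest lay 21.7 kb outside Prdm16 and inside Arhgef16, so no Liver peak inside Prdm16 had a −log10 q of at least 2.

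**Figure D3:**
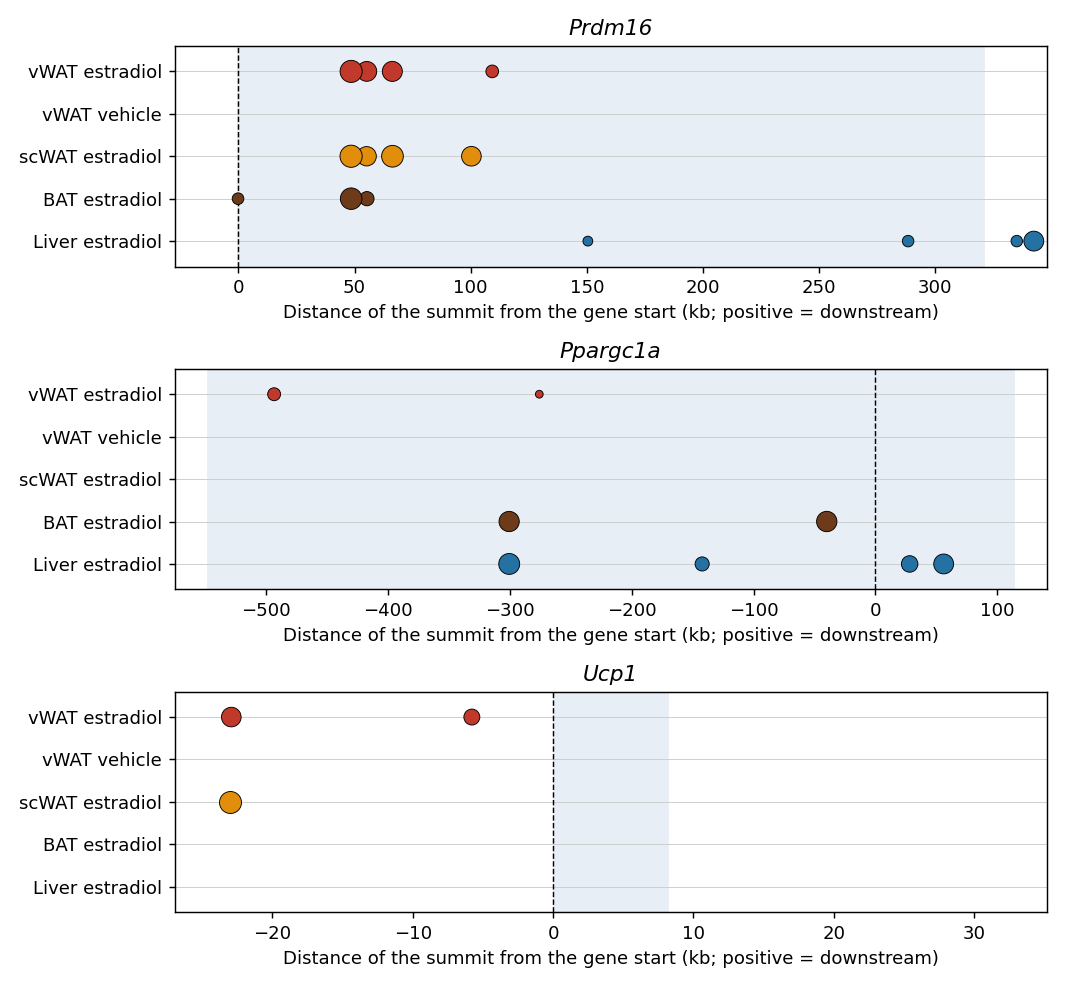
Summits of ERα peaks around Prdm16, Ppargc1a and Ucp1 in each of the 5 lists, placed by distance from the gene start in kb (dashed line, positive downstream). Shading is the gene's span and a larger circle is a higher percentile within its list. At Prdm16 the fat lists with estradiol line up at 48.5 kb and the Liver summits lie beyond 150 kb, and at Ppargc1a no summit lies within 25 kb of the start.

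The third BAT peak of Prdm16 lay at the gene start. It covered chr4:154637020-154637318 with its summit 153 bp upstream of the start, at an enrichment at percentile 18.8 of the list and a −log10 q of 0.955, and no other list had a peak there. Of the 6 members in the promoter table used here, which was drawn from RefSeq (Ucp1, Prdm16, Ppargc1a, Dio2, Zic1 and Lhx8), Prdm16 was the one whose 300-base window, from 250 bases before to 50 after the start, overlapped a peak in any list. The Prdm16 window (GRCm38.p6, the assembly of mm10, chr4:154636824-154637123, minus strand) is shown because a BAT summit fell in it, with the 104 bases under the BAT peak in capitals and the summit at base 98. The Ucp1 window (chr8:83290098-83290397, plus strand) is shown as that of the gene that defines brown fat, with a GGTCA in capitals, and held no peak in any list.
Prdm16: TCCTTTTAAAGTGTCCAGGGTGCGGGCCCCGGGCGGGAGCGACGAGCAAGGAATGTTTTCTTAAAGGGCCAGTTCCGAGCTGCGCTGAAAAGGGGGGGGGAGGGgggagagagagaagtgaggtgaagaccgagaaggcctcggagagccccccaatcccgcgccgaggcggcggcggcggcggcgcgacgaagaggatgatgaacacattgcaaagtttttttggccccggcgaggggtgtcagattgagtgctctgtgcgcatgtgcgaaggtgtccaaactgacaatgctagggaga
Ucp1: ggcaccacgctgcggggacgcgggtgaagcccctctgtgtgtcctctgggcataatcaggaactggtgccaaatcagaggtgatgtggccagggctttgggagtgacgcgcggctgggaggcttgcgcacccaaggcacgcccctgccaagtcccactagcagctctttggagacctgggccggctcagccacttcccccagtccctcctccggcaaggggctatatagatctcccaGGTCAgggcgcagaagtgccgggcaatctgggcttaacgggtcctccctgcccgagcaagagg
The estrogen response element joins inverted GGTCA arms. On either strand, the full element (GGTCA, 3 free bases, then TGACC) was in none of the 6 windows and in 0.0579% of 17274 promoters of protein-coding genes, and an arm alone (GGTCA or TGACC, which the full element also holds) was in 3 of 6 (Ucp1, Zic1 and Lhx8) and in 39.0% of promoters. Neither the repeat bound by PPARγ with RXR (AGGTCA, 1 free base, then AGGTCA) nor the EBF element (TCCC, 2 free bases, then GGGA) was in the 6 windows, against 0.0521% and 0.949% of promoters. A match in these letters is not evidence of binding.

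Ebf2, an early B cell factor that marks and commits brown precursors, had the most peaks of any member in vWAT with estradiol. The gene spans 198 kb on chromosome 14 (chr14:67233292-67430952), and 4 of its 5 peaks lay inside it. Their enrichments were 6.07, 4.73, 4.63 and 3.63 inside the span, with the fifth at 4.12 and 24.2 kb outside. These were of middle to low strength in the list (percentiles of 10.9 to 69.5), and 9.04% of 3951 genes of 50 to 200 kb had as many or more peaks. None of the 5 was found in another list. In vWAT with vehicle the gene had 1 peak, 21.5 kb outside the span (5.03, percentile 56.0). In scWAT (3.26, percentile 41.9) and Liver (3.33, percentile 32.8) it had 1 peak each inside the span, at other places. BAT had no Ebf2 peak within 25 kb. At 44.2 to 44.7 kb from the low-coordinate end, all 3 fat tissues with estradiol had a peak, with an enrichment of 4.44 in vWAT, 4.63 in scWAT and 4.06 in BAT.

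Zic1 and Lhx8, a zinc finger and a LIM homeobox gene that mark classical brown fat, had peaks in the BAT list alone, and these were weak. The Zic1 peak (chr9:91380187-91380485) lay 14.5 kb upstream of the gene start, inside the span of the neighbouring Zic4, with an enrichment of 4.32 (percentile 51.5) and a −log10 q of 1.71. The Lhx8 peak (chr3:154319261-154319559) lay inside the gene, 11.2 kb downstream of its start, with an enrichment at percentile 18.8 and a −log10 q of 0.955. Many BAT peaks had the same values: 175 had the enrichment of the Zic1 peak and 139 that of the Lhx8 peak, these included. Of all BAT peaks 33.5% had a −log10 q of at least 2, and neither of these did. The next peak to Zic1 in another list was in Liver, 40.9 kb from the span.

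Ppargc1a, whose product coactivates the nuclear receptors and respiratory factors that build mitochondria, had peaks in BAT, Liver and vWAT with estradiol. Its RefSeq span of 662 kb (chr5:51454249-52115853) reaches far upstream of the start that this table lists, so a peak inside it can be distant from the start. BAT had a peak 39.9 kb upstream of the start (chr5:51607454-51607754, enrichment 5.26, percentile 79.8) that no other list held. A peak about 301 kb upstream was in BAT (5.24, percentile 79.0) and Liver (5.63, percentile 85.0), with summits 60 bp apart. Both BAT peaks were in the upper part of their list and had a −log10 q above 3.

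Liver had 3 further Ppargc1a peaks, 56.0 and 28.1 kb downstream and 142 kb upstream of the start, with enrichments of 4.84, 3.85 and 3.33. In vWAT with estradiol the gene had 2 weak peaks, 276 kb (3.21, percentile 2.45) and 494 kb (4.08, percentile 25.8) upstream, and it had none in vWAT with vehicle or in scWAT. No Ppargc1a summit in any list was within 25 kb of the start. Of 990 genes over 200 kb, 16.6% had 2 or more BAT peaks and 34.8% had 4 or more Liver peaks.

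Ucp1, the uncoupling protein itself, had peaks in white fat with estradiol and none in BAT. The gene is 8.11 kb long (chr8:83290348-83298456). A peak 22.9 kb upstream in vWAT (chr8:83267194-83267702) had an enrichment of 6.48 (percentile 73.5), and the matching peak in scWAT had an enrichment of 9.39 (rank 860 of 17971, percentile 95.2), with summits 76 bp apart. This site lay inside the span of the neighbouring Tbc1d9. A further vWAT estradiol peak lay 5.79 kb upstream of Ucp1 (chr8:83284288-83284711, enrichment 4.64, percentile 45.0), with Ucp1 as the nearest gene, and no other list held it. No peak near Ucp1 was listed in vWAT with vehicle or in Liver. Beyond the window, at 34.0 to 34.8 kb past the other end of the gene and nearest to Elmod2, peaks were listed in both vWAT lists, scWAT and Liver, again without BAT.

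Cidea, which encodes a lipid droplet protein enriched in brown fat, had 4 peaks in vWAT with estradiol and 2 with vehicle, 1 in Liver, and none in scWAT or BAT. The gene spans 24.2 kb of chromosome 18 (chr18:67343564-67367794). All 4 estradiol peaks lay outside it and low in the list, with enrichments of 4.08 to 4.24 (percentiles of 25.8 to 31.8). Their distances from the span were 0.157 and 6.76 kb on the low-coordinate side and 1.85 and 23.4 kb on the other. The peak at 1.85 kb was also in vWAT with vehicle (4.84, percentile 51.5), with summits 15 bp apart, and the other vehicle peak at 19.1 kb was among the weakest of its list (2.92, percentile 0.432). Of 8949 genes of 10 to 50 kb, 7.46% had 4 or more peaks in vWAT with estradiol. The nearest BAT peak was 31.2 kb away.

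Elovl3, an elongase of very long chain fatty acids that cold induces in brown fat, had a site held in all 5 lists, and that site was nearer to another gene. It lay 16.7 kb beyond the 3.80 kb gene (chr19:46131897-46135694), beside the low-coordinate edge of the span of Gbf1, a gene of vesicle transport. The summits were between 0.024 and 0.128 kb outside that edge. Enrichment there was 10.9 in vWAT with estradiol (percentile 92.3), 8.98 in vWAT with vehicle (83.9), 4.78 in scWAT (76.9), 3.45 in BAT (12.8) and 7.09 in Liver (92.1). Elovl3 had no other peak within 25 kb. Dio2, the deiodinase, had no peak within 25 kb in any fat list. Its lone peak was in Liver, inside the 14.5 kb gene (chr12:90724552-90739038), 13.6 kb downstream of the start, with an enrichment of 3.33, the value of 4183 Liver peaks in all.

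The window of 25 kb set some of these counts. Just inside it were the outer peaks of Ebf2 at 24.2 kb and Cidea at 23.4 kb in vWAT with estradiol and that of Ucp1 at 23.0 kb in scWAT. Just outside were a Liver peak of Ppargc1a at 27.7 kb (enrichment 2.42), a vWAT estradiol peak of Cidea at 28.6 kb (3.32) and an scWAT peak of Dio2 at 30.2 kb (3.95). Within 50 kb, BAT had peaks for 7 of 9 members (39.7% of all genes) and Liver for 8 of 9 (77.4%).

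**Figure D4:**
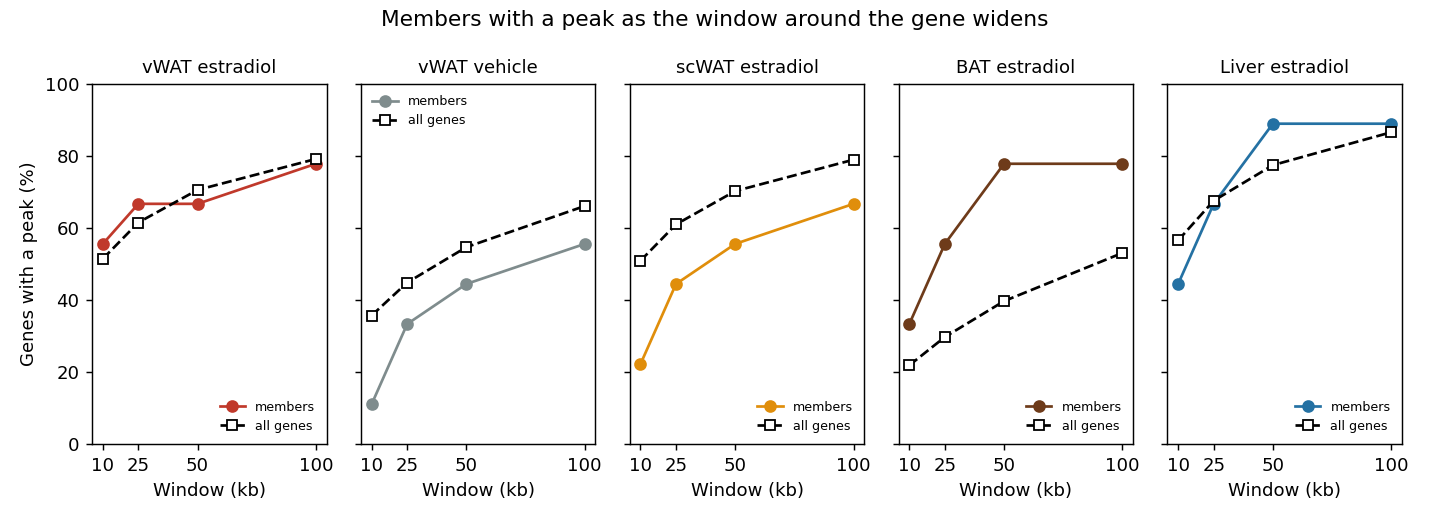
Share of the 9 genes (coloured line) and of all protein-coding genes (dashed line) with an ERα peak, in percent, for windows of 10, 25, 50 and 100 kb around the gene span, in each list. In BAT the members stay above all genes at each of the 4 windows, in scWAT and in vWAT with vehicle they stay below, and in vWAT with estradiol and in Liver the lines cross.

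Between hormone and vehicle in vWAT, 6 members had a peak with estradiol (Ucp1, Prdm16, Ppargc1a, Cidea, Elovl3 and Ebf2) and 3 with vehicle (Cidea, Elovl3 and Ebf2). A peak found with estradiol and not with vehicle stood near 5 of 9 members, all of the 6 but Elovl3, and near 46.3% of all genes. A peak held with both treatments stood near 2 of 9 (Cidea and Elovl3) and near 34.9% of all genes. Of the 18 estradiol peaks, 16 (88.9%) had no vehicle counterpart, as had 77.3% of the whole estradiol list, and 2 of the 4 vehicle peaks had no estradiol counterpart, as had 36.2% of the whole vehicle list. The lists differ in length. With each held to 5193 peaks by p-value, 2 members had an estradiol peak (Prdm16 and Elovl3, 28.9% of all genes), 3 had a vehicle peak (37.3%), and Prdm16 alone had an estradiol-only peak (11.2%).

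Between BAT and the other tissues with estradiol, 4 of 9 members had a BAT peak found in neither vWAT, scWAT nor Liver: Lhx8, Zic1, Ppargc1a and Prdm16, the last at its start. Such a peak stood near 10.4% of all genes. Of the 8 BAT peaks near members, 3 (37.5%) were found in vWAT with estradiol, the same 3 in scWAT, and 2 (25%) in Liver, beside 44.6%, 42.8% and 36.2% of the whole BAT list. The 3 were both shared Prdm16 sites and the Gbf1 site beyond Elovl3. Of the 7 scWAT peaks near members, 5 (71.4%) were found in vWAT with estradiol and 1 (14.3%) in Liver, beside 56.0% and 25.8% of the whole scWAT list. With peaks of a −log10 q of at least 2, BAT peaks stood near 2 of 9 members (Prdm16 and Ppargc1a, 13.9% of all genes), and a BAT peak found in no other tissue near Ppargc1a alone (1.55% of all genes). Counted for the nearest gene only, BAT peaks stood near 3 of 9 members (16.7% of all genes).

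Over all lists the 49 peaks fell at 37 places, 30 of them in 1 list, 4 in 2, 2 in 3 and 1 in 5. Of the 18 peaks in vWAT with estradiol, 12 (66.7%) were in no other list, against 43.2% of the whole list, and of the 12 in Liver 10 (83.3%) were in no other, against 71.4%. In vWAT with vehicle it was 2 of 4 (50%, whole list 23.9%), in scWAT 2 of 7 (28.6%, whole list 35.9%) and in BAT 4 of 8 (50%, whole list 48.0%). Places shared between fat and Liver were the BAT and Liver peak of Ppargc1a and the Gbf1 site.

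Genes around these 9 in the thermogenic pathway were counted in the same way, to be read against the shares of all genes with a peak: 61.5% in vWAT with estradiol, 44.8% with vehicle, 61.0% in scWAT, 29.7% in BAT and 67.5% in Liver. Of 16 other transcription factors and cofactors of brown fat, 11 had a BAT peak (68.8%), 14 a peak in vWAT with estradiol and 6 in vWAT with vehicle, 13 in scWAT and 14 in Liver. The strongest in BAT were near Esrra (18.0, percentile 99.8), the estrogen-related receptor of mitochondrial genes, its relative Esrrg (5.76, percentile 85.8) and the thyroid hormone receptor Thra (5.63, percentile 84.6). Esrra and Thra had peaks in all 5 lists and Esrrg in all but the vehicle list. Of 16 thermogenic effectors 5 had a BAT peak (31.3%), near the share of all genes, led by Cox7a1 (11.1, percentile 98.5) and Cox8b (5.04, percentile 75.5), cytochrome oxidase subunits of brown fat, and the thioesterase Acot11 (4.42, percentile 55.3). In the other lists the effector counts were 12 in vWAT with estradiol and 7 with vehicle, 10 in scWAT and 12 in Liver. Cox7a1 and Cox8b had peaks in all 5 lists, that of Cox7a1 at percentile 99.2 in Liver and 94.2 in vWAT with vehicle. Acot11 had none in Liver or in vWAT with vehicle.

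Among 10 genes of secreted factors of brown fat, 3 had a BAT peak (30%, beside 29.7% of all genes): Fgf21 (enrichment 7.93, percentile 95.04), Gdf15 (5.15, percentile 77.1) and Bmp8b (percentile 18.8). The other lists had 7 of these in vWAT with estradiol and 3 with vehicle, 8 in scWAT and 8 in Liver. Fgf21 and Gdf15 had peaks in all 5 lists and Bmp8b in all but the vehicle list. Of 10 genes of adrenergic input 3 likewise had a BAT peak, among them the protein kinase A catalytic subunit gene Prkaca (percentile 78.5) and the adenylyl cyclase gene Adcy3 (enrichment 4.64, percentile 68.3). Prkaca and Adcy3 had peaks in all 5 lists. The adrenergic counts in the other lists were 9 in vWAT with estradiol and 6 with vehicle, 9 in scWAT and 7 in Liver. None of 8 beige cell marks had a BAT peak (29.7% of all genes), 4 had one in vWAT with estradiol (50%, beside 61.5%) and 2 with vehicle (25%, beside 44.8%), 4 in scWAT (50%, beside 61.0%) and 7 in Liver (87.5%, beside 67.5%). The strongest of these in vWAT with estradiol was near Tnfrsf9 (12.7, percentile 95.3), followed by P2rx5 (4.79) and Slc36a2 (4.78). Tnfrsf9 had peaks in all lists but BAT, P2rx5 also in Liver, and Slc36a2 also in scWAT and Liver. Of 13 repressors of the brown program and white fat marks 5 had a BAT peak (38.5%), near Zfp423 (10.4, percentile 98.0), which holds cells to the white fate, the corepressor Nrip1 (5.24, percentile 79.0) and Ctbp1 (4.06, percentile 37.7) most strongly. In vWAT 12 of the 13 had a peak with estradiol (61.5% of all genes) and 10 with vehicle (44.8% of all genes), and 8 did in scWAT and 7 in Liver. Zfp423 and Nrip1 had peaks in all 5 lists, and Ctbp1 in all but the vehicle list. The neighbours Hoxc8, Hoxc9 and Hoxc10 had the same strongest enrichment in vWAT, 4.40 with estradiol and 4.66 with vehicle, so these 3 are not separate counts.

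The pattern of Ucp1 over the 5 lists, with peaks in vWAT with estradiol and scWAT alone, was that of 629 genes (2.91%). Likeness was measured as the Euclidean distance over the 5 lists between percentiles of the strongest peak, with 0 for no peak. The genes nearest to Ucp1 were Chn1 (distance 4.15), Abcc8 (6.22) and Cnot6 (7.24). The pattern of Ppargc1a, with peaks in vWAT with estradiol, BAT and Liver, was that of 130 genes (0.601%), and the nearest were Emc4 and Katnbl1, which had equal values (3.72), and Taf5 (5.46), which also had a weak scWAT peak.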

How the data were processed

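ERα ChIP-seq lists of vWAT, scWAT, BAT and Liver were analysed. The RNA-seq and histone mark libraries were not used here. Build mm10, BWA 0.7.12 and HOMER are named per the submitters' processing notes, which give the tools no task. Which caller, threshold and input made the lists, and whether libraries were pooled first, is not given in the sources used here. Read depth is unknown. The authors' deposited columns are, for every peak, an enrichment ratio over an unstated background, a −log10 p-value, a −log10 q-value, a score that follows the −log10 p-value, and a summit offset. Peaks on chromosomes 1 to 19 and X were kept (20715, 7400, 17971, 5193 and 21411 in vWAT with estradiol, vWAT with vehicle, scWAT, BAT and Liver). Gene spans, starts and promoters came from RefSeq on GRCm38.p6, and exons were not assigned. Peaks of different lists that overlapped by at least 1 bp counted as shared. An absent peak is one that was not listed. Weak peaks hold few reads, so a longer or shallower list can add or miss them.

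Members and gene lists were chosen with earlier results of these data known. All members were named, with 3 genes per pathway list, by strongest BAT and then vWAT estradiol peak, of which 1 is not reported here. Python 3.11.15, numpy 2.4.6, pandas 2.3.3 and matplotlib 3.10.9 were used, and gene assignment and overlap were tested on simulated data. Alternatives covered the window, list length, q-value, nearest gene, gene start and overlap.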

Additional observations from a re-analysis of the deposited data

How the results depend on the processing

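Of 62 counts over 8 results and 9 alternatives, 40 stayed within 1.5 times the count reported. The BAT list holds 5193 peaks, so its count of members with lists held to that length could not move. The share of all genes under the same setting follows each count in brackets. Within 10 kb of the gene, members with a peak numbered 1 in vWAT with vehicle (35.7%), 2 in scWAT (50.9%) and 3 in BAT (21.9%). A vWAT peak held with both treatments stood near 1 (26.7%). Within 100 kb, 5 had a vehicle peak (66.1%) and 4 a vWAT peak held with both (55.5%). With each list held to 5193 peaks, 2 had a vWAT estradiol peak (28.9%) and 3 a Liver peak (35.8%). An estradiol-only peak then stood near 1 (11.2%) and a peak held with both near 1 (20.2%). With a −log10 q of at least 2, 2 had a BAT peak (13.9%) and 1 a BAT peak found in no other tissue (1.55%). Counted for the nearest gene, 2 had a scWAT peak (41.9%), 3 a BAT peak (16.7%) and 1 a vWAT peak held with both (18.7%). The promoter table used here gave a gene start for 6 of the 9 members and for 17274 genes, the base of the next shares. Within 25 kb of the gene start, 1 had a vWAT estradiol peak (52.1%), 0 a vehicle peak (37.7%) and 1 a scWAT peak (51.8%). In BAT it was 3 (22.8%) and in Liver 1 (56.9%). An estradiol-only peak stood near 1 (34.9%) and a peak held with both near 0 (29.7%). This last setting drops 3 members by its construction. Requiring summits within 100 bp, or overlap of at least 50% of the shorter peak, left 3 counts of members as reported: those with an estradiol-only vWAT peak, with a vWAT peak held with both treatments, and with a BAT peak found in no other tissue. Counts of shared peaks were not recomputed under these rules, and summits of some shared sites lay over 100 bp apart (113 bp at Prdm16, 104 bp beyond Elovl3). No paired analysis was possible because each group has 1 list, and for the same reason no library could be left out. The BAT list, from 1 library, had the lowest share of peaks with a −log10 q of at least 2 (33.5%).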
